A study of Mus musculus with 6 samples.

Results

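The 37 genes described here are expressed mainly by macrophages and related myeloid cells, and they were measured in cultured mouse prostate stroma. They were taken as a named list of myeloid markers, low ones included, from the 24341 gene symbols with usable values in all 6 libraries. The list was chosen with earlier results of these data known. Its counts and medians, set beside those of all genes, therefore describe the list and do not test it. The tested libraries were 3 of cells carrying S37A β-catenin in the FU-CGW lentiviral vector, and the comparison libraries were 3 of cells carrying the vector alone (Vec). β-catenin is the nuclear effector of canonical Wnt signalling, and in the S37A form a serine needed for its degradation is replaced, so the protein persists. All libraries came from primary cells dissociated from prostates of C57BL/6 mice aged 8 to 12 weeks and grown on collagen with 1e-10 M dihydrotestosterone. Cells that had not attached 30 minutes after replating were discarded, and the cultures were used within 3 weeks of dissociation. The labels name no sort that would remove blood cells, do not say what promoter drives the insert, and do not say whether animals were pooled or whether each library had a culture or animal of its own. The p-values therefore describe only how much these libraries vary, and that variation may be technical.

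Macrophages are phagocytes that live in nearly all tissues, the prostate included, and depend for survival on the cytokine CSF1 acting through its receptor CSF1R. The transcription factor PU.1, encoded by Spi1, sets much of their gene expression. Many of their surface receptors have no signalling tail of their own and pair with the adaptors DAP12, encoded by Tyrobp, and the Fc receptor γ chain, encoded by Fcer1g, which recruit the kinase Syk.

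Of the 37 genes, 28 have a promoter window in the RefSeq table of the GRCm38.p6 build, running from 250 bases before to 50 bases after the gene's start. The motif GAGGAAG, or its reverse complement CTTCCTC on the other strand, is the core that PU.1 binds, and other ETS factors bind it too. It occurred in the windows of 10 of these 28 genes (35.7%), namely Ctss, Laptm5, Cd53, Fcgr1, Fcgr3, Clec4d, Vav1, C1qc, Mrc1 and Trem2, and in 4152 of 27025 symbols of the whole table (15.4%). A match describes these letters and is not a binding site. The 3 sequences are shown in the sense of the gene, because these genes were higher in S37A and their upstream bases hold no annotated exon, and the capitals mark the motif. They lie at chr3:95526536-95526791 (Ctss), chr6:123261857-123262106 (Clec4d) and chr17:48346151-48346400 (Trem2), all on the plus strand.
Ctss: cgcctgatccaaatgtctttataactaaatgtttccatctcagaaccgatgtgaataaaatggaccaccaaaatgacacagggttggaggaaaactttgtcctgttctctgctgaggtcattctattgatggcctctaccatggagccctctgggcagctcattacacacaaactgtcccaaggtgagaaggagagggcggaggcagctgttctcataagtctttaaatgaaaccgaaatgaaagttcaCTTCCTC
Clec4d: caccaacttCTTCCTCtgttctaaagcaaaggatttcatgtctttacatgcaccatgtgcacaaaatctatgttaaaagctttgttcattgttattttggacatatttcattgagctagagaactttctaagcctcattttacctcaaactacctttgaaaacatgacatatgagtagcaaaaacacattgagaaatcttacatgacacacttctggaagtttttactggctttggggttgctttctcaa
Trem2: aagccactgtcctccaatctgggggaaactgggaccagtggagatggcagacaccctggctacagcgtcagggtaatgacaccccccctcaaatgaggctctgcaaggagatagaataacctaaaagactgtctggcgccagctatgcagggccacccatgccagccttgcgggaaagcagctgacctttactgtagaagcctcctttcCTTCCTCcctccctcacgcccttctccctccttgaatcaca
The motif began 1 base before the start in Ctss, whose printed window runs 6 bases past the start, 241 bases before it in Clec4d and 41 bases before it in Trem2.

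Most of the myeloid genes were higher in S37A cells. Levels are in FPKM, the fragments of a transcript scaled to its length and to the size of the library, and the FPKM of the 37 genes summed to 83.4, 84.1 and 75.5 in the S37A libraries, against 37.9, 31.6 and 31.9 in the Vec libraries. All 3 S37A sums lay above all 3 Vec sums, and the ratio of the group means was 2.40. Lyz2, the most abundant of the 37, was not the whole of it, since the other 36 genes summed to 44.3 ± 2.30 FPKM in S37A and 19.7 ± 1.67 FPKM in Vec (SD, n = 3 each), a ratio of 2.24. Group mean FPKM was higher in S37A for 34 of the 37 genes, whereas it was higher in S37A for 31.2% of the 19606 genes above 0 in any library. The median log2 ratio of group mean FPKM, with 0.05 FPKM added to both means, was 0.92 over the 37 genes and -0.09 over those 19606 genes. In RNA of a whole culture, more cells of a type and more RNA per cell cannot be told apart.

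**Figure D1:**
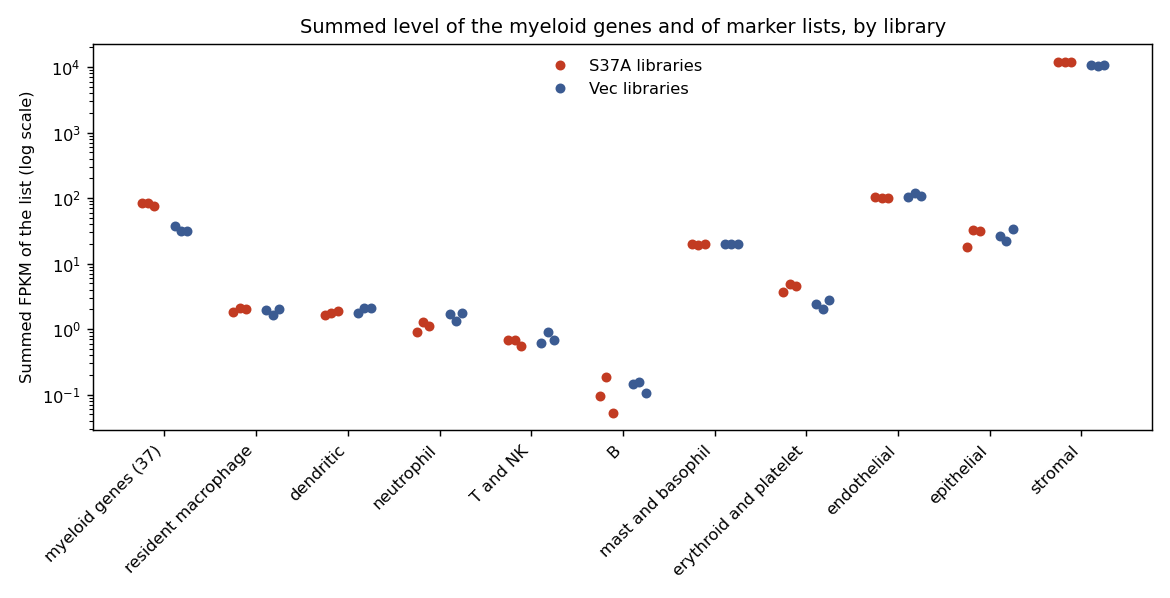
Summed FPKM of the 37 myeloid genes and of 10 lists of other cell markers (log axis), S37A left of Vec, with a point for each library. The myeloid sums lie between 75.5 and 84.1 in S37A and between 31.6 and 37.9 in Vec. Some sums, the dendritic, neutrophil and endothelial ones among them, rest largely on 1 gene.

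Gene differences were tested on log2(FPKM + 1) with limma over the 12022 genes that averaged at least 0.5 FPKM, and p-values were adjusted by Benjamini-Hochberg over all of them. On that scale the change of a low gene is understated. Of these genes, 6.06% were called higher and 19.9% lower in S37A at an adjusted p under 0.05. Of the 37 myeloid genes, 19 entered the test, and 16 were called higher, 0 lower and 3 were not called. All S37A libraries lay above all Vec libraries for 18 of the 19, a pattern shown by 11.3% of the tested genes, and 36.5% showed the opposite one. A count among genes that pass such a filter favours those that are high in one group, and 9 of the 19 had a Vec mean under 0.5 FPKM. Median-ratio scaling of the libraries changed the split of all calls to 1340 higher and 890 lower, against 729 and 2393 as deposited, and 16 of the myeloid genes were again called higher. An exact permutation test of a single gene in 3 libraries against 3 cannot go below p = 0.1.

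The targeted gene and a known Wnt target were read as checks of the labels. Ctnnb1, which encodes β-catenin, had 132, 144 and 146 FPKM in S37A and 116, 99.1 and 116 FPKM in Vec (log2 difference 0.35, limma adjusted p = 0.0158). Its call was lost without S37A replicate 2 (adjusted p = 0.0534) and without S37A replicate 3 (adjusted p = 0.0585), with a range of 0.0101 to 0.0585 over 13 alternatives. Axin2, a Wnt feedback target, had 3.29, 2.74 and 2.82 FPKM in S37A against 0.169, 0.0921 and 0.132 FPKM in Vec (limma adjusted p = 3.85e-05). The groups did not overlap for either gene. Stromal markers were abundant in both groups, with Vim at 1665 ± 52.6 FPKM in S37A and 1587 ± 83.1 FPKM in Vec (SD, n = 3 each) and Acta2 at 3563 ± 121 FPKM in S37A and 3170 ± 73.3 FPKM in Vec. From the width of the deposited intervals, the libraries held 40.6 to 46.8 M fragments in S37A and 46.2 to 51.0 M in Vec, and 10959 to 11093 genes reached 1 FPKM in each library.

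**Figure D2:**
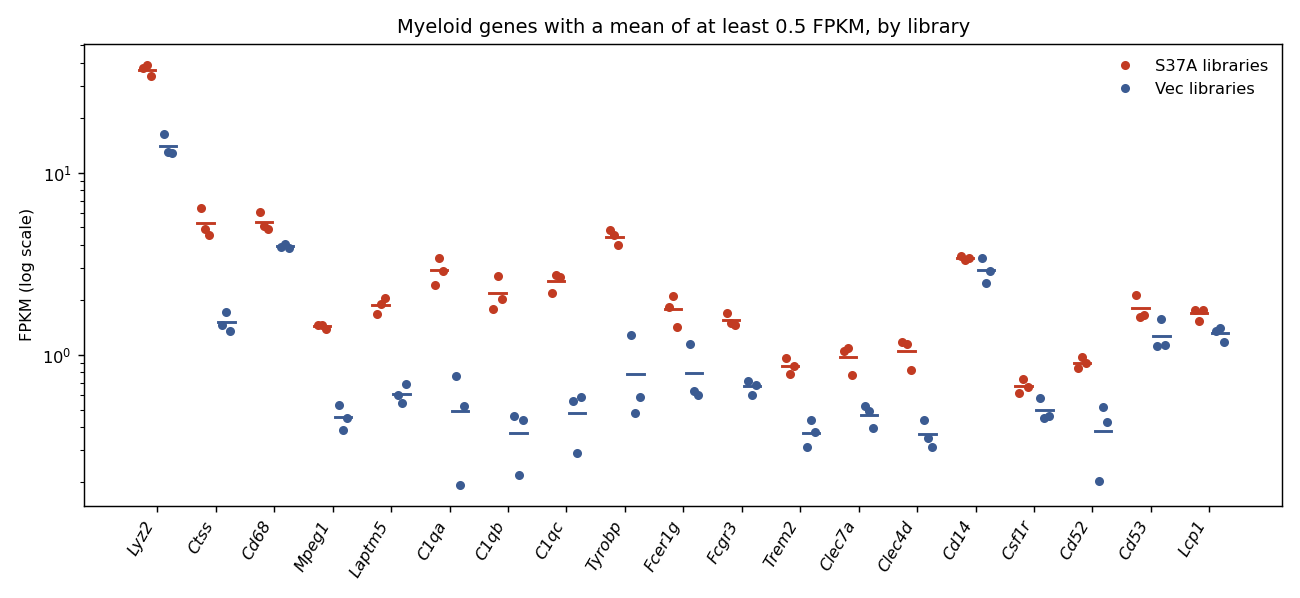
FPKM (log axis) of the 19 myeloid genes that averaged at least 0.5 FPKM, S37A left of Vec for each gene, with a point for each library and a line at the group mean. The 3 S37A points lie above the 3 Vec points for 18 of the 19 genes, all but Cd14.

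The lysosomal and effector genes Lyz2, Ctss, Cd68, Laptm5 and Mpeg1 were all called higher. Lyz2, which encodes the lysozyme of macrophages and lies on chromosome 10 from 117277331 to 117282321 (mm10, minus strand), had 37.4, 38.9 and 33.8 FPKM in S37A, against 16.3, 13.04 and 12.9 FPKM in Vec. Every S37A library lay above every Vec library, and the difference was 1.33 on the log2 scale (limma adjusted p = 0.000847). Ctss, a lysosomal protease of antigen-presenting cells whose promoter is shown above, had 6.42, 4.93 and 4.53 FPKM in S37A and 1.45, 1.71 and 1.35 FPKM in Vec. It rose by 1.32 on the log2 scale (adjusted p = 0.00161) without overlap between the groups. Nearly all of it lay in 1 transcript model.

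Cd68, a lysosomal glycoprotein used as a macrophage marker, differed less, at 6.09, 5.11 and 4.88 FPKM in S37A against 3.92, 4.08 and 3.84 FPKM in Vec (log2 difference 0.36, limma adjusted p = 0.0160). Its lowest S37A library lay above its highest Vec library. The lysosomal membrane protein gene Laptm5 averaged 1.87 ± 0.182 FPKM in S37A and 0.611 ± 0.0712 FPKM in Vec (SD, n = 3 each), a ratio of 3.06. Mpeg1, which encodes a pore-forming protein of phagosomes, averaged 1.44 ± 0.0373 FPKM in S37A and 0.456 ± 0.0715 FPKM in Vec, a ratio of 3.15. Both were called higher by limma (adjusted p = 0.00140 and 0.00125).

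**Figure D3:**
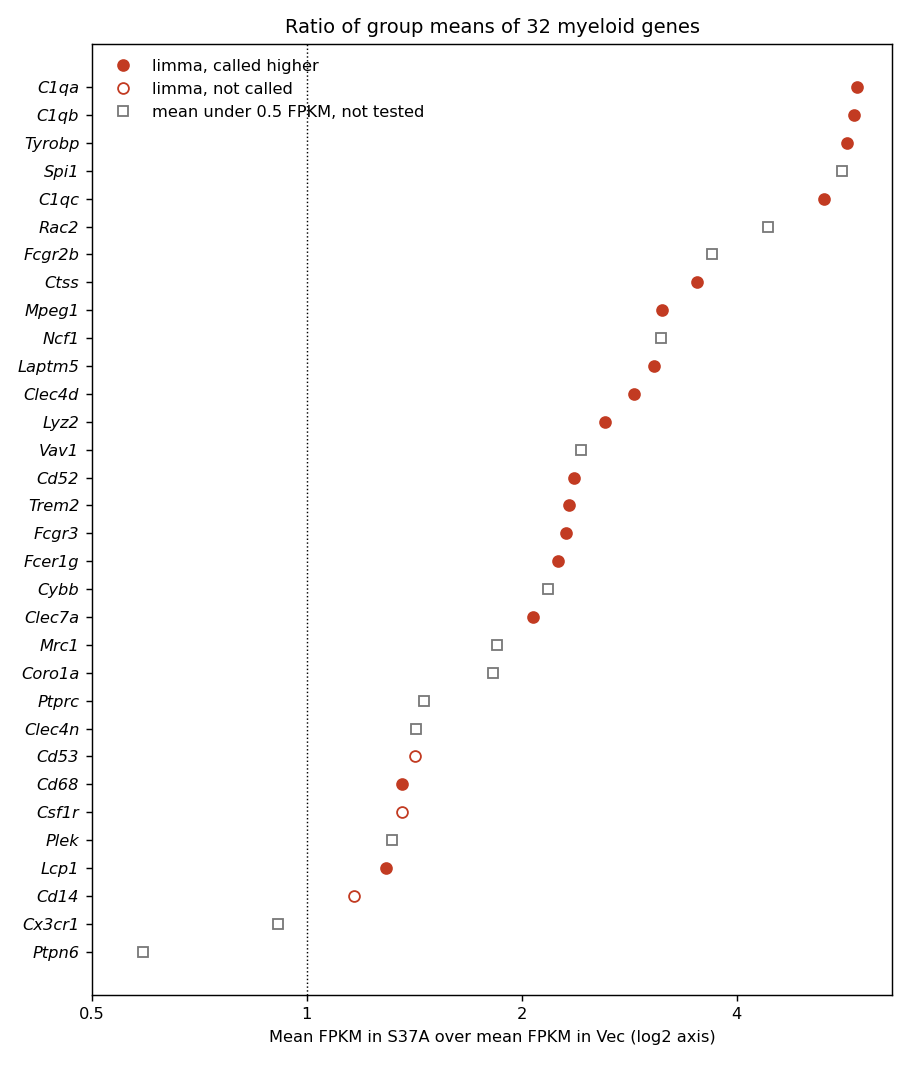
Ratio of group mean FPKM, S37A over Vec (log2 axis), for 32 of the 37 myeloid genes in order, with filled circles for genes called higher by limma, open circles for genes not called and squares for genes too low for the test. C1qa, C1qb, Tyrobp, Spi1 and C1qc lie at the top, with ratios of 5.30 to 5.89, and Ptpn6 and Cx3cr1 lie below 1; Ncf4, Was, Aif1, Fcgr1 and Cd163, too low for a ratio, are not shown.

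The genes of complement C1q, the recognition protein of the classical pathway made largely by macrophages, were all called higher. They lie within 18.7 kb of each other on chromosome 4, from 136880129 to 136898803 (mm10). C1qa had 2.43, 3.39 and 2.89 FPKM in S37A, against 0.766, 0.193 and 0.521 FPKM in Vec. C1qb had 1.79, 2.70 and 2.02 FPKM in S37A, against 0.461, 0.220 and 0.436 FPKM in Vec. C1qc had 2.17, 2.76 and 2.68 FPKM in S37A, against 0.559, 0.288 and 0.587 FPKM in Vec. No library of either group crossed into the other for any of the 3 genes, and all 3 were highest in S37A replicate 2 and lowest in Vec replicate 2. The log2 differences were 1.40, 1.20 and 1.26 (limma adjusted p = 0.00353, 0.00271 and 0.00145), and the ratios of means were 5.89, 5.83 and 5.30. The ratio of C1qc to C1qb FPKM was 1.21, 1.02 and 1.33 in S37A and 1.21, 1.31 and 1.35 in Vec, and the ranges of the groups overlapped. The other C1 components, the proteases C1ra, C1rb, C1s1 and C1s2 and the inhibitor Serping1, were not called (0 of 5), and their summed level was 61.4 ± 0.605 FPKM in S37A and 69.2 ± 6.51 FPKM in Vec.

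The adaptors that carry the signal of macrophage receptors differed in size of change. Tyrobp had 4.84, 4.52 and 4.001 FPKM in S37A, against 1.28, 0.477 and 0.584 FPKM in Vec, with no overlap of the groups. It rose by 1.64 on the log2 scale, a ratio of means of 5.71 (limma adjusted p = 0.00260). Fcer1g had 1.83, 2.11 and 1.41 FPKM in S37A and 1.15, 0.630 and 0.602 FPKM in Vec, a ratio of 2.25 (log2 difference 0.64, adjusted p = 0.0178). Its groups did not overlap either, but its call was lost without S37A replicate 2 (adjusted p = 0.0573), Vec replicate 2 (0.0530) or Vec replicate 3 (0.0520), and its adjusted p ran from 0.00883 to 0.0573 over 13 alternatives. The ratio of Tyrobp to Fcer1g FPKM was 2.65, 2.15 and 2.83 in S37A and 1.12, 0.757 and 0.970 in Vec. That difference between the adaptors was not tested.

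The lipid, antibody and lectin receptor genes Trem2, Fcgr3, Clec4d and Clec7a were called higher. Trem2, a lipid-sensing receptor that signals through DAP12, had 0.956, 0.788 and 0.872 FPKM in S37A, against 0.312, 0.436 and 0.375 FPKM in Vec (limma adjusted p = 0.00699). Fcgr3, an activating receptor for IgG that signals through the Fc receptor γ chain, averaged 1.55 ± 0.126 FPKM in S37A and 0.671 ± 0.0593 FPKM in Vec (adjusted p = 0.00271). Clec4d, a C-type lectin receptor, averaged 1.05 ± 0.193 FPKM in S37A and 0.366 ± 0.0639 FPKM in Vec (adjusted p = 0.00699). Each of these genes had its 3 S37A libraries above its 3 Vec libraries. Clec7a, the β-glucan receptor Dectin-1, averaged 0.972 ± 0.169 FPKM in S37A and 0.469 ± 0.0664 FPKM in Vec and was also called higher (adjusted p = 0.0125). Fcgr2b, the inhibitory receptor for IgG, was under the filter at 0.488 ± 0.0621 FPKM in S37A and 0.132 ± 0.0872 FPKM in Vec, with no overlap of the groups.

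Fcgr2b, Fcgr3 and Fcer1g lie on chromosome 1 between 170958617 and 171234365 (mm10), and Clec4n and Clec4d on chromosome 6 between 123229843 and 123275265. Fcgr2b and Fcgr3 are related genes, as are Clec4n and Clec4d, and whether fragments were split between relatives was not tested. Clec4n, the lectin Dectin-2, differed less than its neighbour, at 0.571 ± 0.0535 FPKM in S37A and 0.402 ± 0.113 FPKM in Vec (SD, n = 3 each).

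General leukocyte and macrophage surface genes were not all called. Csf1r, the receptor for CSF1, had 0.615, 0.741 and 0.668 FPKM in S37A and 0.582, 0.448 and 0.460 FPKM in Vec. The groups did not overlap, but the gene was not called (log2 difference 0.16, limma adjusted p = 0.0883), and its exons share 873 bases with Hmgxb3 on the opposite strand, which this kit does not separate. Cd14, the co-receptor for bacterial lipopolysaccharide, had 3.49, 3.30 and 3.41 FPKM in S37A and 3.39, 2.47 and 2.88 FPKM in Vec. Its groups overlapped and it was not called (adjusted p = 0.153), though it was without Vec replicate 1 (0.0314), with a range of 0.0314 to 0.358 over 13 alternatives. Cd53, a tetraspanin of leukocytes, was not called at 1.804 ± 0.291 FPKM in S37A and 1.27 ± 0.258 FPKM in Vec (adjusted p = 0.0628). It was called under quantile normalization (0.0469) and without Vec replicate 2 (0.0368), and its adjusted p ran up to 0.158. Cd52, a small surface glycoprotein of leukocytes, was higher at 0.905 ± 0.0645 FPKM in S37A than at 0.382 ± 0.161 FPKM in Vec (adjusted p = 0.0143), a call lost without S37A replicate 3 (0.0512) and resting on 36 inferred fragments in S37A and 17 in Vec. Its exons share 172 bases with Crybg2 on the opposite strand.

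The other 18 genes averaged under 0.5 FPKM and were too low for the test. Each value has a deposited confidence interval, and the lowest S37A lower bound did not exceed the highest Vec upper bound for any of the 18. By the values alone, 11 had all S37A libraries above all Vec libraries, against 4.19% of the 7584 genes above 0 in this range. Ptpn6, which encodes the inhibitory phosphatase SHP-1, had all S37A libraries below all Vec libraries, a pattern found in 13.1% of those genes. The remaining 6, namely Aif1, Ncf4, Fcgr1, Mrc1, Cd163 and Cx3cr1, overlapped between the groups. For Was, among the 11, the lowest S37A value (0.0373 FPKM) and the highest Vec value (0.0312 FPKM) each rested on 3 inferred fragments.

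**Figure D4:**
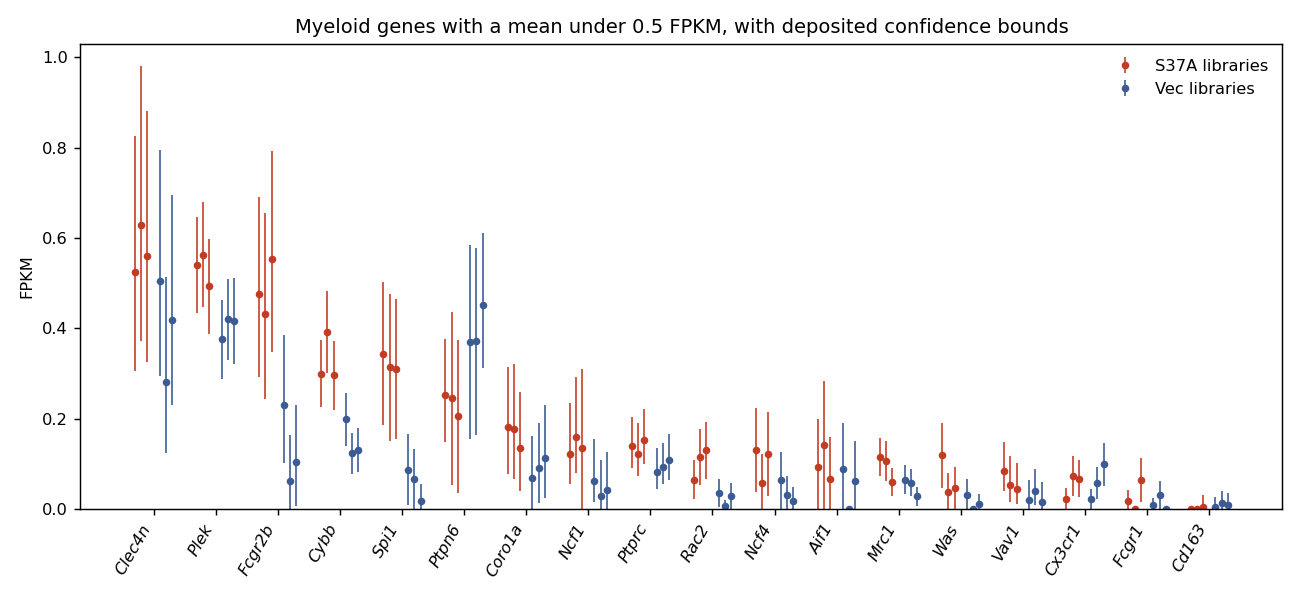
FPKM with the deposited confidence bounds of the 18 myeloid genes under 0.5 FPKM in each library (points with vertical lines), S37A left of Vec. The bounds of the groups overlap for all 18 genes, and a value listed at 0 has bounds of 0 to 0.

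Spi1 had 0.344, 0.313 and 0.310 FPKM in S37A, against 0.0874, 0.0666 and 0.0184 FPKM in Vec. The bounds ran from 0.150 to 0.503 FPKM over the S37A libraries and from 0 to 0.166 FPKM over the Vec libraries, and the interval widths correspond to 50 fragments in all in S37A and 10 in Vec. Cybb, the catalytic subunit of the phagocyte NADPH oxidase, had 0.299, 0.392 and 0.296 FPKM in S37A and 0.198, 0.123 and 0.131 FPKM in Vec, with bounds of 0.220 to 0.482 FPKM over the S37A libraries and 0.0782 to 0.257 FPKM over the Vec libraries. In a fit of limma without the filter, over 19606 genes, 3.07% were called higher and 8.76% lower. There Spi1 (adjusted p = 0.00841), Ncf1 (0.0205), Fcgr2b (0.0208), Cybb (0.0290), Plek (0.0435) and Rac2 (0.0448) were called higher and Ptpn6 lower (0.0252), and 11 of the 18 were not called. With a filter of 0.1 FPKM instead, 3 of these 18 genes were called higher and 1 lower. Another 4 were tested and not called, Plek among them (limma adjusted p = 0.0638), and the rest stayed under that filter. Of all 13997 genes in that fit, 751 were called higher and 2361 lower. Ptpn6 averaged 0.234 ± 0.0255 FPKM in S37A and 0.398 ± 0.0460 FPKM in Vec.

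The other oxidase and cytoskeletal genes were close to the limit of the data. Ncf1, a cytosolic subunit of the oxidase, averaged 0.138 ± 0.0188 FPKM in S37A and 0.0441 ± 0.0169 FPKM in Vec, and its exons share 408 bases with Gtf2ird2 on the opposite strand. Rac2, a small GTPase of blood cells, averaged 0.104 ± 0.0346 FPKM in S37A, 40 inferred fragments in all, and 0.0235 ± 0.0149 FPKM in Vec, 10 fragments. Plek, a substrate of protein kinase C in platelets and leukocytes, averaged 0.532 ± 0.0353 FPKM in S37A and 0.404 ± 0.0246 FPKM in Vec. Its exons share 199 bases with Cnrip1 on the opposite strand. Such overlap also exists for Ptpn6 (195 bases), Fcgr2b (155 bases), Lcp1 (311 and 219 bases), Cx3cr1 (78 bases) and Coro1a (26 bases). Ncf4, Was, Aif1, Fcgr1 and Cd163 had a lower bound of 0 in all libraries of at least 1 group, and no ratio is given for them. Ncf4, another oxidase subunit, averaged 0.103 FPKM in S37A and 0.0366 FPKM in Vec, and Was, an actin regulator of blood cells, averaged 0.0673 FPKM in S37A and 0.0140 FPKM in Vec. Aif1, the marker Iba1, averaged 0.0997 FPKM in S37A and 0.0503 FPKM in Vec, and Fcgr1, the high-affinity receptor for IgG, 0.0270 FPKM in S37A and 0.0132 FPKM in Vec, each with 9 inferred fragments in S37A and 5 in Vec. Lcp1, the actin-bundling protein of leukocytes, was abundant enough for the test, at 1.69 ± 0.135 FPKM in S37A and 1.31 ± 0.116 FPKM in Vec (limma adjusted p = 0.0408). Its call was lost in 8 of 13 alternatives, with an adjusted p of up to 0.124, among them each omission of 1 library (0.0548 to 0.124).

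Vav1, Coro1a and Ptprc, genes of blood-cell signalling and actin turnover, had means of 0.0608, 0.165 and 0.138 FPKM in S37A and 0.0251, 0.0906 and 0.0948 FPKM in Vec, without overlap of the groups. The scavenger receptors Mrc1 and Cd163, and the fractalkine receptor Cx3cr1, did not separate. Mrc1 averaged 0.0933 FPKM in S37A and 0.0506 FPKM in Vec, and Cx3cr1 averaged 0.0543 FPKM in S37A and 0.0596 FPKM in Vec. For Cd163, the means were 0.00172 FPKM in S37A and 0.00926 FPKM in Vec, with 2 of the 3 S37A libraries listed at 0.

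For some of the genes with several transcript models, the assigned model changed between libraries. All of Vav1 was assigned to 1 model in S37A and to another in Vec, and Clec4d moved to a second model in S37A replicate 3. Sums over the models are the measure used for every gene. Among the libraries of a group, Vec replicate 1 held the highest value of the Vec group for 21 of the 37 genes, and its sum of 37.9 FPKM was the highest of the Vec group. Of the tested myeloid genes, 11 of 19 were highest in Vec replicate 1, against 30.4% of all 12022 tested genes. Without that library, 16 were again called higher. All S37A libraries lay above all Vec libraries for 29 of the 37 genes, a pattern that 8.56% of the 19606 genes above 0 showed. In the S37A group, replicate 3 held the lowest sum, 75.5 FPKM.

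Genes of macrophages outside the list were less uniform. Of 50 such genes, 13 passed the filter, of which 4 were called higher, 0 lower and 9 not at all. Of all tested genes, 6.06% were called higher and 19.9% lower. The median log2 ratio over all 50 was 0.39. Lilrb4a, an inhibitory receptor, averaged 1.07 ± 0.128 FPKM in S37A and 0.237 ± 0.0988 FPKM in Vec (limma adjusted p = 0.00353). C3ar1 (adjusted p = 0.0201) and Mertk (0.0423) were called too, but C3ar1 was lost without any 1 S37A library (0.0538 to 0.0603) and Mertk without any 1 of the 6 (0.0617 to 0.119) and without a filter (0.0557), so that 2 genes of the list were called without S37A replicate 2 or without S37A replicate 3. With replicate number added to the fit as a block, C3ar1 (limma adjusted p = 0.0567) and Mertk (0.0933) were lost as well. Without a filter 10 of the 50 were called higher, against 3.07% of all 19606 genes in that fit. With a filter of 0.1 FPKM 11 were called higher, against 751 of all 13997 genes. The macrophage markers Adgre1 and Itgam stayed under the filter, at 0.235 and 0.274 FPKM in S37A and 0.0786 and 0.127 FPKM in Vec. Cd80 was the highest gene of this list, at 69.4 FPKM in S37A and 69.8 FPKM in Vec, and was not called.

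Among other genes of adaptor signalling, some receptors and an adaptor included, 7 of 20 passed the filter, with 0 called higher and 1 lower. That gene, Prkcd, was at 25.4 ± 0.355 FPKM in S37A and 28.9 ± 0.898 FPKM in Vec (limma adjusted p = 0.0151), a call lost without S37A replicate 2 (0.0507), without S37A replicate 3 (0.0529) and under median-ratio scaling (log2 difference -0.10 in place of -0.18, 0.0850). Syk averaged 0.660 FPKM in S37A and 0.657 FPKM in Vec and was not called. The partners of the oxidase are shared with many cell types, and of 4, Rac1 was called higher (adjusted p = 0.0327), Cyba lower (0.0272) and 2 were not called. Rac1 was lost without any 1 library except S37A replicate 1 (0.0509 to 0.111) and without a filter (0.0548). Cyba was lost without any 1 library except Vec replicate 1 (0.0640 to 0.0837) and under median-ratio scaling (log2 difference -0.07 in place of -0.16, 0.163).

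Resident-macrophage, monocyte and lipid-associated genes were read as further lists. The 11 resident-macrophage genes summed to 1.99 ± 0.126 FPKM in S37A and 1.89 ± 0.208 FPKM in Vec (SD, n = 3 each), and 2 of them passed the filter. Of 9 monocyte genes, Nr4a1 and Plac8 were the 2 that passed, and both were called higher. Nr4a1, an orphan nuclear receptor also induced in many cells as an early-response gene, averaged 83.4 ± 4.40 FPKM in S37A and 38.2 ± 4.23 FPKM in Vec (limma adjusted p = 0.000916). Plac8 averaged 149 ± 3.33 FPKM in S37A and 136 ± 4.23 FPKM in Vec. Its call was lost without any 1 library except Vec replicate 1 (0.0562 to 0.108), without a filter (0.0517), without the trend (0.0523) and with the replicate block (0.0776). The defining monocyte markers Ly6c2 and Ccr2 were at 0.110 and 0.00414 FPKM in S37A and 0.105 and 0.0270 FPKM in Vec. Of 16 genes of the Trem2-dependent programme and of osteoclasts, 12 passed, with Apoe called higher, Ctsb and Ctsd lower and 9 not called. Apoe, a lipid carrier secreted by macrophages among other cells, averaged 11.0 ± 1.26 FPKM in S37A and 4.44 ± 0.540 FPKM in Vec (adjusted p = 0.00161). Ctsb lost its call without S37A replicate 3 (0.0670) and under median-ratio scaling (log2 difference -0.08 in place of -0.16, 0.140). Ctsd lost its call without any 1 library (0.0604 to 0.139), without a filter (0.0951), without the trend (0.0539) and with the replicate block (0.0537). It also lost it under median-ratio scaling (log2 difference -0.04 in place of -0.12, 0.449) and under quantile normalization (0.365).

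Ligands that support or recruit macrophages are made by stromal cells, and 9 of 11 passed the filter. Ccl2, which recruits monocytes, fell to 42.5, 45.6 and 40.8 FPKM in S37A, against 126, 122 and 95.1 FPKM in Vec (limma adjusted p = 0.00113). Ccl7, a related chemokine, fell to 37.6, 41.4 and 34.4 FPKM in S37A, against 94.0, 84.0 and 63.5 FPKM in Vec (adjusted p = 0.00557). All S37A libraries lay below all Vec libraries for both chemokines. Ccl8 was lower as well (adjusted p = 0.0293) and Cx3cl1 (0.0214) and Csf3 (0.0478) were higher, and 4 were not called. Ccl8 lost its call without S37A replicate 1, S37A replicate 3, Vec replicate 1 or Vec replicate 2 (0.0625 to 0.0921), without a filter (0.0637), under median-ratio scaling (0.0537) and under quantile normalization (0.0624). Cx3cl1 lost its call without S37A replicate 2 or 3 or Vec replicate 2 or 3 (0.0512 to 0.0706). Csf3 lost its call without any 1 library (0.0530 to 0.136), with a pseudocount of 0.1 FPKM (0.0521), without a filter (0.0679) and with the replicate block (0.101). Csf1, the ligand of the receptor encoded by Csf1r, was not called at 510 ± 3.95 FPKM in S37A and 487 ± 10.5 FPKM in Vec.

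Markers of other cell types gave the following values, and their part in the rise of the myeloid genes was not tested. Of 7 antigen-presentation genes, 4 passed and H2-DMa was called higher at 3.55 ± 0.0490 FPKM in S37A and 2.66 ± 0.0574 FPKM in Vec (limma adjusted p = 0.00614), while H2-Aa and Cd74 stayed under 0.2 FPKM in both group means. Dendritic cell genes summed to 1.78 FPKM in S37A and 1.98 FPKM in Vec, with 0 of 1 called. Most of these sums came from Zbtb46, at 1.37 FPKM in S37A and 1.54 FPKM in Vec. Neutrophil genes summed to 1.11 FPKM in S37A and 1.61 FPKM in Vec. The 1 tested, S100a8, made up most of these sums (0.859 FPKM in S37A and 1.40 FPKM in Vec) and was lower (adjusted p = 0.0282). Its call was lost without any 1 library except Vec replicate 2 (0.0554 to 0.0794), without a filter (0.0555), under quantile normalization (0.0533) and with the replicate block (0.0517). T and natural killer cell genes summed to 0.634 FPKM in S37A and 0.742 FPKM in Vec, led by Lck, and B cell genes to 0.112 FPKM in S37A and 0.137 FPKM in Vec, led by Cd79a, with 0 genes of either list above the filter. Mast cell genes had 0 of 2 called. Of platelet and red cell genes, Pf4, which macrophages also express, was called higher at 3.08 ± 0.480 FPKM in S37A and 0.862 ± 0.252 FPKM in Vec (adjusted p = 0.00340), and Itga2b and Ppbp were not called.

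Endothelial genes summed to 102 ± 2.46 FPKM in S37A and 110 ± 7.52 FPKM in Vec, with 0 of 9 called. Most of these sums came from Emcn, at 68.6 FPKM in S37A and 76.1 FPKM in Vec. Epithelial genes summed to 27.3 ± 7.91 FPKM in S37A and 27.6 ± 5.81 FPKM in Vec, with 0 of 7 called. Of 12 stromal genes, 5 were called higher and 1 lower by limma, against 6.06% and 19.9% of all tested genes. The calls were led by Cnn1 at 455 ± 14.1 FPKM in S37A and 341 ± 4.21 FPKM in Vec (adjusted p = 0.00155) and Des at 99.2 ± 0.233 FPKM in S37A and 79.8 ± 4.39 FPKM in Vec. Acta2, also called higher, lost its call in 7 of 13 alternatives. Among them were each omission of 1 S37A library (0.0680 to 0.0706), no filter (0.195) and quantile normalization (0.276). Pdgfra, the gene called lower (adjusted p = 0.0132), lost its call without S37A replicate 3 (0.0555) and under median-ratio scaling (0.0575). Of 10 immediate-early and stress genes, Ier2, Egr1 and Atf3 were called lower, with Ier2 at 37.5 ± 2.37 FPKM in S37A and 62.0 ± 4.21 FPKM in Vec. Atf3 lost its call without S37A replicate 2 or 3 or Vec replicate 2 or 3 (0.0904 to 0.119), without a filter (0.0580) and with the replicate block (0.0848). It also lost it under quantile normalization (0.113) and under median-ratio scaling (log2 difference -0.10 in place of -0.18, 0.194). Reads of the lysozyme paralog Lyz1, at 0.275 ± 0.0845 FPKM in S37A and 0.113 ± 0.0550 FPKM in Vec, could be shared with Lyz2.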

How the data were processed

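RNA for 3 S37A and 3 Vec libraries was copied with a SMART-Seq v4 kit, primed at random and at poly(A) tails, per the labels' protocols; strand is not marked. The submitters' processing notes name mm10, Cufflinks, TopHat and bcl2fastq 1.8.3; versions of Cufflinks and TopHat are not given in the sources used here. Per the file headers, the deposited FPKM values have a lower and an upper confidence bound per transcript model, beside a coverage signal in the authors' deposited files that was not used for any result.

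FPKM of models with 1 symbol were summed, and Dag1, Eftud2, Fhl1, Nrp2 and Trim32, whose status was not OK in a library, were left out of 24346 symbols from 34535 models. Bounds were summed likewise. Fragment numbers were inferred from interval widths, for genes with 1 model. They were whole within 0.02 for 86.5% to 87.6% of values up to 10 fragments but 9.00% to 9.75% above 30, so no count test was run. A library listed at 0 has bounds of 0 to 0. A level of up to 3 fragments is not excluded there, but no result uses that allowance. Inferred depths and bounds cover counting error only. Tests used limma 3.58.1 in R 4.3.3, with its intensity trend, on all 6 libraries, a pseudocount of 1 FPKM, a minimum mean of 0.5 FPKM and Benjamini-Hochberg adjustment at 0.05; the script was tested on simulated data. Ratios of means carry no pseudocount. Positions are from GENCODE on mm10 and promoters from RefSeq on GRCm38.p6.

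The members and lists were chosen with earlier results of these data known. All 37 members are given; of other lists, called genes with the 4 smallest p are named, and other genes of those lists were named after their values were seen. The alternatives for the other lists, their named genes and the counts of non-overlapping groups were added after seeing the data. Ly6g and Hbb-bt were not analysed here. Some genes that meet the naming rule are not reported here. Replicate numbers showed no clear sign of pairing the samples (correlation of same-numbered deviations -0.120, 0.0207 and 0.104). With 3 libraries in each group, these values cannot show that pairing was absent.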

Additional observations from a re-analysis of the deposited data

How the results depend on the processing

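The count of myeloid genes called higher was 14 to 21 under all alternatives run: a pseudocount of 0.1 FPKM, no filter, a filter of 0.1 FPKM, median-ratio scaling, quantile normalization, no trend, a replicate block and each omission of 1 library (14 to 16 for the omissions). Without a filter, 21 of 37 members were called higher, and with a filter of 0.1 FPKM 19 of 27. The other settings tested 19 members, or 20 without Vec replicate 2. Over all genes, 602 of 19606 were called higher without a filter and 751 of 13997 with a filter of 0.1 FPKM. In both of these fits 1 member was called lower instead of 0, namely Ptpn6. No direction of a tested member reversed under these alternatives. Over the 19 tested members and 13 alternatives each, 232 values kept their side of the threshold, 12 lost a call and 3 gained one; of the named genes outside the list and the label checks, 288 kept theirs and 102 lost a call, with the cause not tested.

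Over all genes, the count called higher was 1340 with median-ratio scaling, 1094 with quantile normalization and 442 with a replicate block, and the count called lower was 890, 957 and 1193. Omitting 1 library gave 298 to 747 higher and 606 to 2401 lower. Whether the replicate numbers paired the samples is not known, and with the replicate block 15 members were called higher. Over the tested genes, the median difference on the log2 scale was -0.07 as deposited, 0.00 with median-ratio scaling and -0.01 with quantile normalization.

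The log2 ratio of the summed FPKM of the members was 1.26, with 1.21 to 1.35 over omissions of 1 library and 1.16 without Lyz2. Their median log2 ratio was 0.92, with 0.82 to 1.05 over the omissions, and 0.35 with a floor of 0.5 FPKM in place of 0.05, which pulls low genes towards 0. Depth limits the 18 genes under 0.5 FPKM, of which 5 had a lower bound of 0 in all libraries of a group.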
